A study of Homo sapiens with 16 samples.

Results

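The potassium channel genes are the genes whose symbol is KCN, then letters, then a number, a rule that uses the symbol only and no measured value. The deposited table held 95 such genes among 61806. They code for the pore-forming subunits of potassium channels and for auxiliary subunits that assemble with them. No symbol occurred more than once among them.

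Potassium channels are membrane pores through which potassium leaves or enters a cell, and the potassium current through them largely sets the resting membrane potential. Voltage-gated channels open when the membrane depolarises, calcium-activated channels open when calcium inside the cell rises, inward rectifiers pass current into the cell more easily than out of it, and two-pore channels carry much of the steady leak at rest. In hepatic stellate cells, the pericytes of the liver sinusoid, membrane potential and calcium entry act on contraction, migration and matrix secretion.

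The cells were of the LX-2 line, human hepatic stellate cells that were immortalised, and poly(A) RNA was sequenced from 16 libraries in 4 groups of 4 replicates. The TWEAK group was wild-type LX-2 given TWEAK, a cytokine of the tumour necrosis factor family, at 100 ng/mL for 2 h. The Fn14 KO group carried a CRISPR/Cas9 knockout of total Fn14, the receptor of TWEAK, and the Fn14alpha KO group a CRISPR/Cas9 knockout of the Fn14alpha isoform. Both knockouts and the wild-type reference (WT) were given the PBS vehicle for 2 h. The title of the series concerns a form of Fn14 that acts without TWEAK. No source used here says whether a knockout line is 1 clone or pooled cells. Since each knockout exists as a separate line, effects of the deletion and of the line cannot be told apart. The design text calls the replicates biological, without saying how they were kept apart. The p-values therefore cover the spread among these 16 libraries, which may be technical.

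Total counts per library ran from 13335919 to 16888606. On the third principal component (5.44% of the variance), WT replicate 4 and Fn14 KO replicate 1 stood apart from the other libraries. TNFRSF12A (ENSG00000006327), the gene of Fn14, averaged 130 ± 7.07 FPKM with TWEAK, 33.6 ± 2.77 in Fn14 KO, 59.3 ± 6.43 in Fn14alpha KO and 128 ± 6.29 in WT (SD, n = 4 each). Against WT its log2 fold change was -1.81 in Fn14 KO (edgeR adjusted p = 2.85e-15) and -1.14 in Fn14alpha KO (edgeR adjusted p = 2.16e-11), so its RNA was lower in both knockouts and present in both. Of 12 stellate cell or fibroblast markers, 10 passed the count filter described further on. Their summed level was 942 to 1010 FPKM with TWEAK, 1069 to 1136 in Fn14 KO, 581 to 591 in Fn14alpha KO and 747 to 791 in WT. COL1A1, VIM, SPARC and TIMP1 made up most of it, while LRAT, a marker of quiescent stellate cells, had 2 counts in all and DES had 73. In Fn14 KO the means of COL1A1, VIM, SPARC, TIMP1, PDGFRB and THY1 lay above those of WT. Those of COL3A1 (8.33 against 23.75 FPKM), COL1A2 (0.162 against 1.48 FPKM), RELN and DES lay below. ACTA2 was close to WT, at 2.79 FPKM in Fn14 KO and 2.83 in WT. Of the lists for other cell types, 1 of 6 hepatocyte markers passed (SERPINA1), 2 of 6 endothelial (TEK and KDR), 2 of 6 leukocyte (CD14 and CD68), 2 of 4 cholangiocyte (SOX9 and KRT7), 3 of 5 neuronal and 3 of 6 muscle markers. SERPINA1 averaged 2.75 FPKM with TWEAK, 0.422 in Fn14 KO, 0.975 in Fn14alpha KO and 2.38 in WT. TEK averaged 1.45 FPKM with TWEAK, 0.293 in Fn14 KO, 0.311 in Fn14alpha KO and 1.46 in WT. SOX9 averaged 4.18 FPKM with TWEAK, 11.02 in Fn14 KO, 5.24 in Fn14alpha KO and 4.20 in WT. The hepatocyte markers ALB and TTR had 11 and 0 counts over the 16 libraries. The part of these marker differences in the results was not tested. In bulk RNA, fewer cells that express a gene and less RNA per cell cannot be told apart.

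The part of a potassium channel that selects the ion is the selectivity filter, a short stretch of the pore loop. The coding stretches around it are shown because they tell pore-forming members of this set from auxiliary ones. They were read from GENCODE 29 transcripts of GRCh38 for the highest member of each pore class and for 2 others on which the results turn, in lower case with the 5 filter codons in capitals. They lie at chr20:51004288-51004320 on the minus strand (KCNG1), chr2:17932107-17932139 on the plus strand (KCNS3), chr10:77110227-77110259 on the minus strand (KCNMA1), chr19:43772048-43772080 on the minus strand (KCNN4), chr12:21766557-21766589 on the minus strand (KCNJ8) and chr19:38326901-38326933 on the plus strand (the second of KCNK6). KCNH3 lies at chr12:49549089-49549121 on the plus strand. The first stretch of KCNK6 crosses an exon junction.
KCNH3: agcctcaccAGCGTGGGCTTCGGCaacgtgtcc
KCNG1: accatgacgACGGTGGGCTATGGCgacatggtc
KCNS3: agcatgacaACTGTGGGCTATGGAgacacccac
KCNMA1: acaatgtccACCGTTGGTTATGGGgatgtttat
KCNN4: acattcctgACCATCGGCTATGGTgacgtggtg
KCNJ8: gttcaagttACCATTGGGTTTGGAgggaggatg
KCNK6, first: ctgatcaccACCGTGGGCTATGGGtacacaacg
KCNK6, second: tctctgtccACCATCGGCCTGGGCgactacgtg
KCNK6, a two-pore subunit, carries 2 such stretches in 1 chain, and the others shown carry 1. In KCNK7, another two-pore member, the search found 1 stretch. In the auxiliary subunits KCNAB2, KCNIP3 and KCNMB4 the search found 0 stretches.

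Detection was set by edgeR's count filter by group, which here asked for about 0.662 CPM (counts scaled to library size) in at least 4 libraries. Of the 95 genes, 37 passed, 42 had between 1 and 90 counts over the 16 libraries and did not pass, and 16 had 0 counts. A mean of at least 1 FPKM in at least 1 group, where FPKM is the fragment count scaled to exonic length and library size, was reached by 13. The set as a whole was low: the summed level of the 95 genes was 26.7 ± 0.473 FPKM with TWEAK, 28.1 ± 1.28 in Fn14 KO, 32.2 ± 1.30 in Fn14alpha KO and 26.5 ± 1.32 in WT (SD, n = 4 each). Of the 37 that passed, 10 would have missed this threshold with 1 of the 4 groups left out, and could thus enter the tests through the group in which they were high, among them KCNC1, KCNE5, KCNG2, KCNH1, KCNH2, KCNJ4, KCNJ6, KCNK3 and KCNS3.

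**Figure D1:**
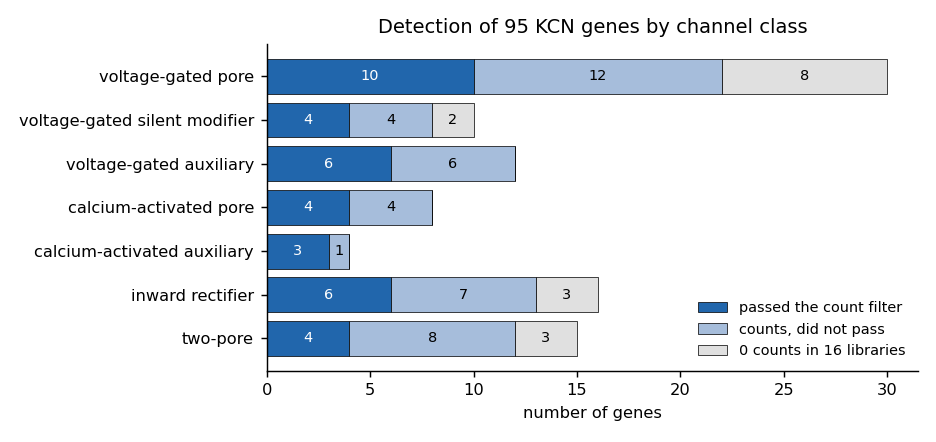
Number of KCN genes (horizontal axis) in each channel class, split into genes that passed the count filter (dark blue), genes with counts that did not pass (light blue) and genes with 0 counts in the 16 libraries (grey). The voltage-gated pore class was the largest, with 10 of 30 members passing and 8 at 0 counts, and the calcium-activated classes had no member at 0.

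Among voltage-gated pore subunits, 10 of 30 passed. KCNA2, KCNA3, KCNA7, KCND2, KCND3, KCNH4, KCNH5, KCNH6, KCNH7 and KCNQ1 were among the 12 that had counts but did not pass, and KCNA1, KCNA4, KCNA5, KCNA6, KCNA10, KCNB2, KCNC2 and KCNH8 had 0 counts. No member of the KCNA family, the Shaker-type channels, passed. Among the electrically silent subunits, which form no channel alone but modify others, 4 of 10 passed, KCNF1, KCNG3, KCNS2 and KCNV2 had traces, and KCNG4 and KCNV1 had 0 counts. Of the auxiliary subunits of voltage-gated channels, 6 of 12 passed, and KCNE1, KCNE2, KCNE3, KCNE4, KCNIP1 and KCNIP4 had traces. Among calcium-activated and related pore subunits 4 of 8 passed, with traces of KCNN2, KCNN3, KCNT1 and KCNU1. Of the KCNMB auxiliary subunits 3 of 4 passed, with traces of KCNMB2. Among inward rectifiers 6 of 16 passed, KCNJ1, KCNJ2, KCNJ5, KCNJ9, KCNJ11, KCNJ13 and KCNJ15 had traces, and KCNJ3, KCNJ16 and KCNJ18 had 0 counts. Among two-pore channels 4 of 15 passed, KCNK1, KCNK4, KCNK5, KCNK9, KCNK10, KCNK12, KCNK13 and KCNK15 had traces, and KCNK16, KCNK17 and KCNK18 had 0 counts. The highest group mean among genes that did not pass was 0.158 FPKM, for KCNG3 in Fn14alpha KO. A count of 0 at this depth sets a limit on RNA in these libraries and does not show that a gene is silent.

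KCNG1 (ENSG00000026559, chromosome 20, 51003656 to 51023107, GRCh38), a silent subunit that assembles with other voltage-gated pore subunits, was the highest potassium channel gene in every group. It averaged 5.72 ± 0.428 FPKM with TWEAK, 5.40 ± 0.341 in Fn14 KO, 6.70 ± 0.255 in Fn14alpha KO and 5.03 ± 0.374 in WT (SD, n = 4 each), which was 21.4% of the summed FPKM of the 95 genes with TWEAK, 19.2% in Fn14 KO, 20.8% in Fn14alpha KO and 19.0% in WT. KCNK6 (chromosome 19), a two-pore leak channel, followed at 2.72 ± 0.225 FPKM with TWEAK, 3.67 ± 0.789 in Fn14 KO, 4.64 ± 0.920 in Fn14alpha KO and 3.02 ± 0.203 in WT (SD, n = 4 each). By the mean over 16 libraries the highest calcium-activated pore gene was KCNN4 (chromosome 19), the intermediate-conductance channel, at 1.69 ± 0.232 FPKM with TWEAK, 1.68 ± 0.0607 in Fn14 KO, 1.74 ± 0.167 in Fn14alpha KO and 1.67 ± 0.189 in WT (SD, n = 4 each). Its library values overlapped between all groups, and in Fn14 KO its mean was below that of KCNMA1, at 1.85 FPKM. The others among the 10 highest were KCNMA1, KCNIP3, KCNAB2, KCNMB4, KCNJ8, KCNH3 and KCNS3, whose values are given with their classes. In WT, all KCNG1 values lay above all KCNK6 values, and these above the other members. The WT values of KCNN4, KCNJ8, KCNMA1, KCNMB4 and KCNAB2, between 1.14 and 1.93 FPKM, overlapped one another, so their order in WT lay within the spread of replicates. Ranks between genes, here and within classes, also depend on the exonic size by which counts were scaled. For KCNAB2 the deposited size was 17362 bases, and another annotation gave 9534. KCNMA1 had 14888 counts over the 16 libraries and KCNN4 had 1282, with deposited sizes of 39437 and 3123 bases. Ranks under other sizes were not tested.

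**Figure D2:**
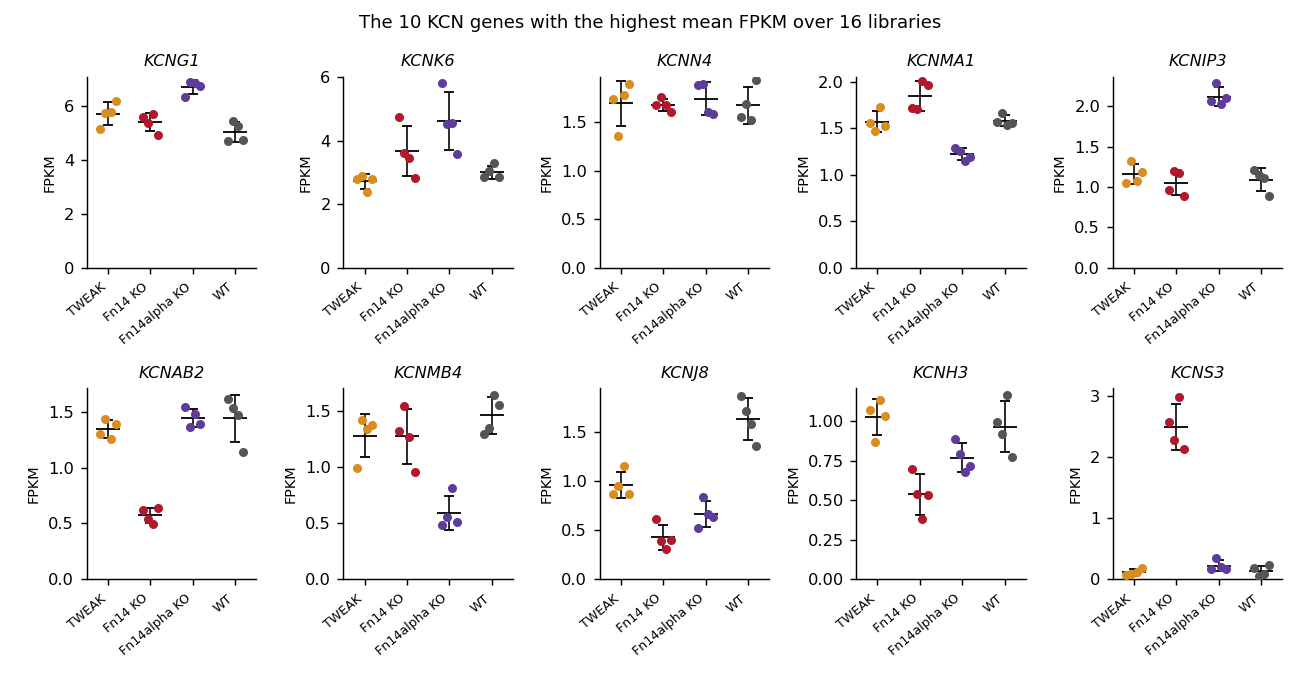
FPKM (vertical axis, from 0, own scale in each panel) of the 10 KCN genes with the highest mean over 16 libraries, in TWEAK, Fn14 KO, Fn14alpha KO and WT, with 1 point per library and lines for the mean and SD of 4 libraries. KCNN4 shows 4 overlapping groups, KCNIP3 stands above the others in Fn14alpha KO and KCNS3 in Fn14 KO.

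By summed FPKM over every member of a class, the silent subunits ranked first in each group, at 6.57 ± 0.397 with TWEAK, 8.54 ± 0.710 in Fn14 KO, 8.41 ± 0.397 in Fn14alpha KO and 6.11 ± 0.218 in WT (SD, n = 4 each). The inward rectifiers differed most in ratio between groups: their sum was 2.17 ± 0.375 FPKM with TWEAK, 1.21 ± 0.0808 in Fn14 KO, 3.59 ± 0.316 in Fn14alpha KO and 2.94 ± 0.284 in WT (SD, n = 4 each). The library sums of Fn14 KO, 1.11 to 1.29 FPKM, lay below those of WT, 2.72 to 3.36 FPKM. Calcium-activated pore subunits summed to 4.15 ± 0.220 FPKM with TWEAK, 4.34 ± 0.158 in Fn14 KO, 4.12 ± 0.189 in Fn14alpha KO and 4.30 ± 0.305 in WT (SD, n = 4 each), with overlapping ranges, although single members moved in opposite directions. The calcium-activated auxiliary subunits summed to 1.88 ± 0.175 FPKM with TWEAK, 2.17 ± 0.132 in Fn14 KO, 0.999 ± 0.0919 in Fn14alpha KO and 2.02 ± 0.252 in WT (SD, n = 4 each), and the Fn14alpha KO libraries lay below all others. These sums depend on the exonic sizes used, are descriptions and carry no test.

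**Figure D3:**
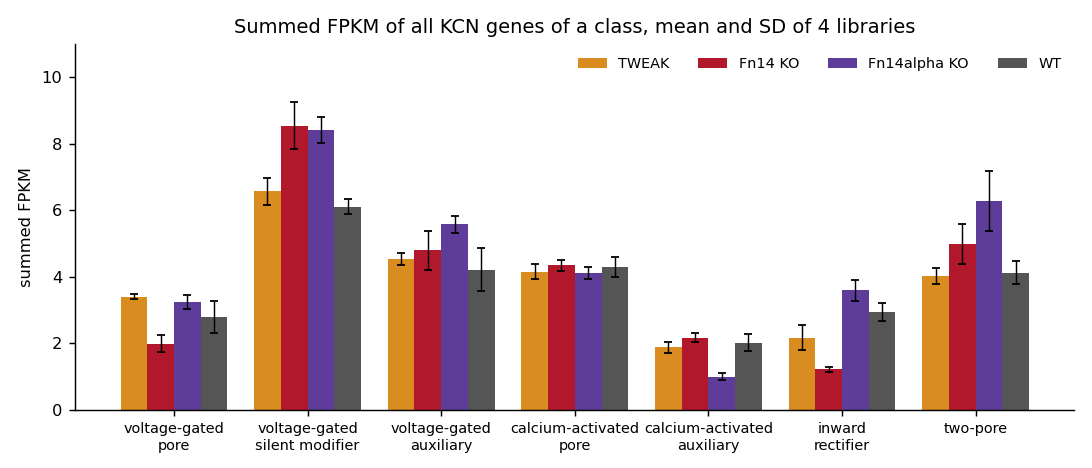
Summed FPKM (vertical axis, from 0) of all KCN genes of a class in TWEAK, Fn14 KO, Fn14alpha KO and WT, as the mean of 4 libraries with the SD as error bar. The inward rectifier sum was 1.21 in Fn14 KO and 2.94 in WT, and the calcium-activated auxiliary sum 0.999 in Fn14alpha KO and 2.02 in WT.

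Tests used edgeR's quasi-likelihood fit over 16029 genes, and the call on a gene required an adjusted p under 0.05 by the Benjamini-Hochberg method over all of them. With TWEAK against WT, 4 of the 37 genes that passed were called, 3 higher and 1 lower (10.8%, against 6.87% of all genes tested, of which 4.82% were higher and 2.05% lower). With scaling by total counts in place of TMM the split was 2 higher and 2 lower, and that of all genes tested 586 higher and 750 lower, against 773 and 328 with TMM. In Fn14 KO against WT, 26 were called, 14 higher and 12 lower (70.3%, against 52.9% of all genes tested, 26.6% higher and 26.3% lower). Scaling by total counts gave 12 higher and 14 lower, and for all genes tested 3189 higher and 5681 lower, against 4256 and 4216 with TMM. In Fn14alpha KO against WT, 21 were called, 15 higher and 6 lower (56.8%, against 42.2%, 20% higher and 22.2% lower). In Fn14 KO against Fn14alpha KO, 29 were called, 12 higher and 17 lower (78.4%, against 59.2%, 30.7% higher and 28.5% lower). With total counts it was 11 higher and 22 lower, and that of all genes tested 3666 higher and 6166 lower, against 4923 and 4566 with TMM. These 4 comparisons share libraries, the first 3 of them the same 4 WT libraries. Because 10 genes may have passed the filter through the group in which they were high, the shares above the background are not read as a property of the set.

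A change of at least 1 log2 unit, a doubling or more, was called for 17 of the 37 genes in Fn14 KO against WT (background 12.9%), 12 in Fn14alpha KO against WT (background 7.67%) and 22 in Fn14 KO against Fn14alpha KO (background 15.3%). Among the 4391 tested genes under 2 log2 CPM these backgrounds were higher, at 28.1% in Fn14 KO against WT, 17.8% in Fn14alpha KO against WT and 30.3% in Fn14 KO against Fn14alpha KO. With TWEAK the edgeR count at that size was 0 (background 0.911%), and so was the DESeq2 count. An unadjusted edgeR p under 0.05 was found for 9 of the 37, and for 3292 of the 16029 genes tested. The median log2 fold change over the 37 was 0.07 with TWEAK against WT, -0.35 in Fn14 KO against WT, 0.43 in Fn14alpha KO against WT and -0.48 in Fn14 KO against Fn14alpha KO. Over all genes tested the medians were -0.01, -0.01, 0.01 and 0.00 in that order. Side by side against WT, KCNJ8 and KCNQ3 were lower in both knockouts (lower in both, 8.94% of all genes tested), and KCNAB1, KCNG1, KCNH1, KCNIP2 and KCNK6 were higher in both (7.61%). KCNC4, KCNH2, KCNJ4, KCNJ14 and KCNN1 were lower in Fn14 KO and higher in Fn14alpha KO (4.55%). KCNMA1, KCNMB1 and KCNT2 were higher in Fn14 KO and lower in Fn14alpha KO (4.82%). Some calls behind these patterns were lost under alternative runs, among them KCNG1, KCNK6 and KCNT2 in Fn14 KO, and KCNH1 and KCNMB1 in Fn14alpha KO.

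**Figure D4:**
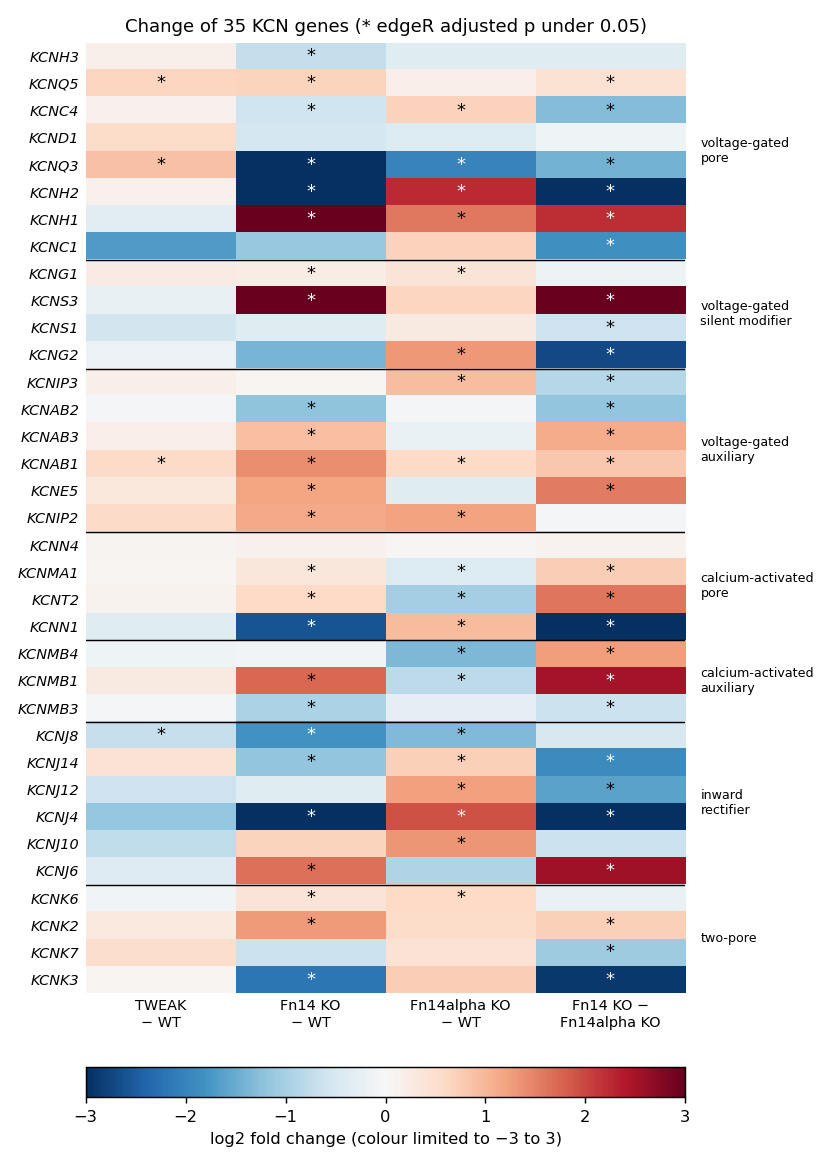
Log2 fold change (colour, limited to -3 to 3) of 35 of the 37 KCN genes that passed the count filter, in rows by channel class, for TWEAK − WT, Fn14 KO − WT, Fn14alpha KO − WT and Fn14 KO − Fn14alpha KO, with an asterisk where the edgeR adjusted p was under 0.05. The columns hold 4, 25, 20 and 27 asterisks for the genes shown; KCNH2 and KCNJ4 had 0 counts in Fn14 KO, so their fitted values there depend on the prior count.

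The 4 genes called with TWEAK were KCNQ3, KCNQ5, KCNAB1 and KCNJ8. KCNQ3, a subunit of the M-type current that restrains excitability in neurons, averaged 0.308 ± 0.0675 FPKM with TWEAK and 0.172 ± 0.0259 in WT (SD, n = 4 each), a log2 fold change of 0.89 ± 0.19 (SE, edgeR adjusted p = 0.00306). All 4 TWEAK libraries, from 0.234 FPKM up, lay above all WT libraries. KCNQ5, of the same family, averaged 0.735 ± 0.144 FPKM with TWEAK and 0.494 ± 0.0829 in WT (SD, n = 4 each), a log2 fold change of 0.64 (edgeR adjusted p = 0.0486). Its call was lost when any 1 library other than TWEAK replicate 4 was left out, with adjusted p up to 0.173 without TWEAK replicate 1 and 0.154 without WT replicate 4. KCNAB1, an auxiliary subunit of the Shaker-type channels, averaged 0.531 ± 0.0480 FPKM with TWEAK and 0.371 ± 0.0558 in WT (SD, n = 4 each), a log2 fold change of 0.57 (edgeR adjusted p = 0.0286). That call was lost without WT replicate 1, 3 or 4 (adjusted p = 0.0692, 0.0853 and 0.0773) and without TWEAK replicate 3 or 4 (adjusted p = 0.105 and 0.0719). KCNC1, a fast voltage-gated channel with 10 counts over the TWEAK libraries and 37 over the WT libraries, had a log2 fold change of -1.71 that missed the threshold (edgeR adjusted p = 0.0618). KCNQ3 was thus the member whose TWEAK call held under every alternative run.

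Among the voltage-gated pore subunits, 7 of 10 that passed were called in Fn14 KO against WT, 2 higher and 5 lower, and 5 in Fn14alpha KO against WT, 4 higher and 1 lower. In Fn14 KO against Fn14alpha KO 2 were higher and 6 lower. Of all genes tested, 52.9% were called in Fn14 KO against WT, 42.2% in Fn14alpha KO against WT and 59.2% between the knockouts. The count filter admitted some of the 10 through 1 group, among them KCNH1 through Fn14 KO and KCNH2 through Fn14alpha KO. The class counts are therefore not read as a property of the class. KCNQ3 averaged 0.0140 ± 0.00200 FPKM in Fn14 KO and 0.0430 ± 0.00678 in Fn14alpha KO, against 0.172 ± 0.0259 in WT (SD, n = 4 each). Its log2 fold changes against WT were -3.44 in Fn14 KO (edgeR adjusted p = 2.18e-09) and -2.01 in Fn14alpha KO (edgeR adjusted p = 7.41e-07). KCNQ3 was therefore higher with TWEAK and lower in both knockouts, at a low level throughout, with 11 counts over the Fn14 KO libraries, 32 over Fn14alpha KO, 231 over TWEAK and 138 over WT.

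KCNH3, a brain-type relative of the ether-a-go-go channels and the highest voltage-gated pore gene by the mean over 16 libraries, averaged 1.03 ± 0.114 FPKM with TWEAK, 0.538 ± 0.131 in Fn14 KO, 0.769 ± 0.0912 in Fn14alpha KO and 0.966 ± 0.163 in WT (SD, n = 4 each). It was lower in Fn14 KO than in WT by a log2 fold change of -0.72 (edgeR adjusted p = 0.00156), and in Fn14 KO its mean was below that of KCNQ5, at 0.720 FPKM. KCNC4, which codes for a fast-inactivating channel, averaged 0.256 ± 0.0158 FPKM in Fn14 KO, 0.697 ± 0.0374 in Fn14alpha KO and 0.420 ± 0.0465 in WT (SD, n = 4 each). All Fn14 KO libraries lay below all WT libraries and all Fn14alpha KO libraries above them, and its log2 fold change between the knockouts was -1.30 (edgeR adjusted p = 6.28e-11).

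KCNH2, the pore subunit of the rapid delayed rectifier of heart muscle, had 0 counts over the 4 Fn14 KO libraries, 113 over Fn14alpha KO and 25 over WT. With a floor of 3 counts over the group it was at least 7.49-fold lower in Fn14 KO than in WT and at least 35.8-fold lower than in Fn14alpha KO. Against WT it was higher in Fn14alpha KO, at 0.270 ± 0.0706 FPKM and 0.0554 ± 0.0103 FPKM in WT (SD, n = 4 each; log2 fold change 2.23, edgeR adjusted p = 1.13e-05). KCNH1, an ether-a-go-go channel, had 95 counts over the Fn14 KO libraries, 21 over Fn14alpha KO and 7 over WT, with log2 fold changes of 3.81 in Fn14 KO (edgeR adjusted p = 3.72e-07) and 1.59 in Fn14alpha KO (edgeR adjusted p = 0.0449) against WT. The Fn14alpha KO call on KCNH1 was lost without WT replicate 1, 3 or 4 (adjusted p = 0.0610, 0.0683 and 0.129) or Fn14alpha KO replicate 1 or 4 (adjusted p = 0.0831 and 0.138), and with no filter on low counts (adjusted p = 0.0767). Other annotated genes overlap 53.0% of the exonic bases of KCNH1, and no source used here states the strand setting of the counting. KCNH1 passed the count filter only through its Fn14 KO libraries, and KCNH2 only through its Fn14alpha KO libraries. KCND1 was called in 0 of the 4 edgeR comparisons, and its smallest adjusted p was 0.108, in Fn14 KO against WT. With the median of the 100 nearest tested genes removed, KCND1 was called lower in Fn14 KO than in WT and than in Fn14alpha KO. In Fn14 KO against WT it was also called lower with limma on log2(FPKM + 0.1), and without WT replicate 4 or Fn14 KO replicate 2.

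Among the silent subunits, KCNS3 had the largest log2 fold change of the 37 genes in Fn14 KO against WT. It passed the count filter only through its Fn14 KO libraries, so this rank is a description. KCNS3 (ENSG00000170745, chromosome 2, 17877847 to 18361616, GRCh38) codes for a subunit that assembles with other voltage-gated channels and slows them. It measured 2.57, 2.28, 2.97 and 2.13 FPKM in the 4 Fn14 KO libraries. The values were 0.0634, 0.0849, 0.121 and 0.192 FPKM with TWEAK, 0.167, 0.349, 0.200 and 0.171 FPKM in Fn14alpha KO, and 0.179, 0.0568, 0.0809 and 0.239 FPKM in WT. All Fn14 KO libraries were high, and no library of another group came near them. The log2 fold change was 4.27 ± 0.28 in Fn14 KO against WT (SE, edgeR adjusted p = 7.89e-12) and 3.63 ± 0.27 in Fn14 KO against Fn14alpha KO (SE, edgeR adjusted p = 3.49e-11). In counts this was 474 over the Fn14 KO libraries against 40 over Fn14alpha KO and 27 over WT. The Fn14alpha KO and TWEAK values overlapped those of WT, with log2 fold changes of 0.64 (edgeR adjusted p = 0.219) and -0.21 (edgeR adjusted p = 0.837). The median log2 fold change of the 100 nearest tested genes was -0.31 in Fn14 KO against WT, opposite in sign.

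KCNG1 was higher in Fn14alpha KO than in WT by a log2 fold change of 0.38 ± 0.08 (SE, edgeR adjusted p = 0.000359), and all Fn14alpha KO libraries lay above all WT libraries. Its values in Fn14 KO overlapped those of WT, with a log2 fold change of 0.22 (edgeR adjusted p = 0.0229) that lost its call without WT replicate 1 (adjusted p = 0.0817), WT replicate 4 (adjusted p = 0.0580) or Fn14 KO replicate 3 (adjusted p = 0.0718), and with total-count scaling (adjusted p = 0.293). KCNS1 averaged 0.397 ± 0.114 FPKM with TWEAK, 0.435 ± 0.0637 in Fn14 KO, 0.743 ± 0.0954 in Fn14alpha KO and 0.603 ± 0.0874 in WT (SD, n = 4 each), and was called in Fn14 KO against Fn14alpha KO (log2 fold change -0.62, edgeR adjusted p = 0.00655). KCNG2 had 71 counts over the Fn14alpha KO libraries, 10 over Fn14 KO and 30 over WT. Its rise in Fn14alpha KO against WT (log2 fold change 1.30, edgeR adjusted p = 0.0264) was lost without WT replicate 2 or 3 (adjusted p = 0.0992 and 0.0579) or Fn14alpha KO replicate 1 or 2 (adjusted p = 0.108 and 0.0750). KCNG2 passed the count filter only through its Fn14alpha KO libraries.

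The 250 bases before the RefSeq start of KCNS3 are printed with those of KCNJ8 and KCNMA1, which changed in both knockouts, and of KCNK16, which had 0 counts. The 4 were chosen with their values known. They come from the RefSeq promoter table of GRCh38.p14, 5′ to 3′ on the strand of the gene, with CG dinucleotides, the sites of DNA methylation, in capitals. KCNS3 lies at chr2:17877597-17877846 on the plus strand, KCNJ8 at chr12:21774707-21774956 on the minus strand, KCNMA1 at chr10:77637809-77638058 on the minus strand and KCNK16 at chr6:39322969-39323218 on the minus strand. For KCNJ8 and KCNMA1 the RefSeq start lies 894 and 561 bases inside the start in the deposited table.
KCNS3: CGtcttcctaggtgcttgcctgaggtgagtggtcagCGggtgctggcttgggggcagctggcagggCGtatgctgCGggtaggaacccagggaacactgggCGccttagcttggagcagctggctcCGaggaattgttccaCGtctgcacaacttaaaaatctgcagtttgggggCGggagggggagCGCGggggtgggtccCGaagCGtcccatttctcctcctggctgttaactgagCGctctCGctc
KCNJ8: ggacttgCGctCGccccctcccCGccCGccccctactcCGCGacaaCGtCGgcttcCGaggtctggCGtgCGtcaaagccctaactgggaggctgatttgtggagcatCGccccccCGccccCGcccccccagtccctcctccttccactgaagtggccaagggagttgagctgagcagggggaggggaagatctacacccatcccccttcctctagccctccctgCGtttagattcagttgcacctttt
KCNMA1: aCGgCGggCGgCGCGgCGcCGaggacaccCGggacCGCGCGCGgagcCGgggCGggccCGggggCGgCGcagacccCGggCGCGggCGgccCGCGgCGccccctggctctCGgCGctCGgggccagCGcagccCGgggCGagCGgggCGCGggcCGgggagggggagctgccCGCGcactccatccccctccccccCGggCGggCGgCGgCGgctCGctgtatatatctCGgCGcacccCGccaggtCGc
KCNK16: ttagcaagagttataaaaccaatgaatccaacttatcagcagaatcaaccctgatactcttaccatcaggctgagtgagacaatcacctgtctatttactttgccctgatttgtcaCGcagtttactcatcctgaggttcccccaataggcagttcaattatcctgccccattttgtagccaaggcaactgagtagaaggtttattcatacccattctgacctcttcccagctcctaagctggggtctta
The windows hold 14, 15, 46 and 1 CG dinucleotides in the order printed. Of the 95 genes, 71 had an entry in the promoter table. The median ratio of observed to expected CG was 0.599 in the 28 entries of genes that passed the filter, 0.608 in the 30 with traces and 0.333 in the 13 with 0 counts, against 0.558 over all 35116 promoters. A set of 3 short motifs was searched in these windows on both strands, and no motif contains another. The AP-1 motif TGANTCA was present in 5.63% of the 71 KCN entries and in 6.57% of all promoters. The E-box CACGTG was present in 4.23% of the KCN entries and in 6.34% of all promoters. The TATA motif TATAAA was present in 8.45% of the KCN entries and in 10.7% of all promoters. Of the 4 windows printed, that of KCNK16 alone held any of them, the TATA motif at position -239.

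Of the 6 auxiliary subunits of voltage-gated channels that passed, 5 were called in Fn14 KO against WT, 4 higher and 1 lower (background 52.9%). KCNE5, 1 of those higher, passed the count filter only through its Fn14 KO libraries. In Fn14alpha KO against WT 3 were called, all higher (background 42.2%). The one that fell was KCNAB2 (ENSG00000069424, chromosome 1, 5990927 to 6101193, GRCh38), the beta subunit of Shaker-type channels that also binds NADPH. It measured 0.617, 0.537, 0.499 and 0.640 FPKM in the Fn14 KO libraries, against 1.62, 1.54, 1.47 and 1.14 FPKM in WT. The TWEAK libraries held 1.30, 1.43, 1.26 and 1.39 FPKM and the Fn14alpha KO libraries 1.54, 1.37, 1.48 and 1.39 FPKM. The Fn14 KO values lay below every other library, and the other groups overlapped. Its log2 fold change was -1.21 ± 0.10 in Fn14 KO against WT (SE, edgeR adjusted p = 7.38e-10) and -1.19 ± 0.10 in Fn14 KO against Fn14alpha KO (SE, edgeR adjusted p = 8.55e-10). It was -0.02 in Fn14alpha KO against WT (edgeR adjusted p = 0.861).

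KCNAB3 (ENSG00000170049, chromosome 17, 7921859 to 7929856, GRCh38), a relative of KCNAB2, went the other way in Fn14 KO. It measured 0.881, 1.20, 0.996 and 1.19 FPKM in Fn14 KO, against 0.741, 0.562, 0.628 and 0.538 FPKM in WT. The TWEAK libraries held 0.913, 0.645, 0.654 and 0.486 FPKM and the Fn14alpha KO libraries 0.635, 0.691, 0.331 and 0.535 FPKM. Fn14 KO lay above WT and Fn14alpha KO without overlap, and 1 TWEAK library reached into its range. KCNAB3 had a log2 fold change of 0.91 ± 0.20 in Fn14 KO against WT (SE, edgeR adjusted p = 0.000417) and 1.11 ± 0.20 in Fn14 KO against Fn14alpha KO (SE, edgeR adjusted p = 5.30e-05). With the median of the 100 nearest tested genes removed these values were 0.57 and 0.67, both still called and the second now below 1 log2 unit.

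KCNAB1, the third beta subunit, was called higher in each comparison with WT: it averaged 0.531 ± 0.0480 FPKM with TWEAK, 0.908 ± 0.0902 in Fn14 KO and 0.575 ± 0.0772 in Fn14alpha KO, against 0.371 ± 0.0558 in WT (SD, n = 4 each). The log2 fold changes in the knockouts were 1.40 in Fn14 KO (edgeR adjusted p = 2.58e-08) and 0.59 in Fn14alpha KO (edgeR adjusted p = 0.00400). The pore genes these beta subunits are known to bind, the KCNA family, had 3 members with traces and 5 at 0 counts here.

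KCNIP3, a calcium sensor that assembles with KCND channels and also acts in the nucleus, stood apart in Fn14alpha KO. It averaged 1.16 ± 0.124 FPKM with TWEAK, 1.05 ± 0.156 in Fn14 KO, 2.12 ± 0.117 in Fn14alpha KO and 1.09 ± 0.144 in WT (SD, n = 4 each). In Fn14alpha KO against WT its log2 fold change was 0.92 ± 0.11 (SE, edgeR adjusted p = 5.10e-07), and the other groups overlapped. KCNIP2, of the same family, was higher in both knockouts, at 0.378 ± 0.136 FPKM in Fn14 KO and 0.435 ± 0.0556 in Fn14alpha KO, against 0.185 ± 0.0911 in WT (SD, n = 4 each). An antisense gene overlaps 12.2% of its exonic bases. KCNE5, an X-linked small subunit, averaged 0.781 ± 0.284 FPKM in Fn14 KO and 0.373 ± 0.144 in WT (SD, n = 4 each). Its log2 fold change of 1.20 (edgeR adjusted p = 0.00931) lost its call without Fn14 KO replicate 2 (adjusted p = 0.0594). KCNE5 passed the count filter only through its Fn14 KO libraries.

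**Figure D5:**
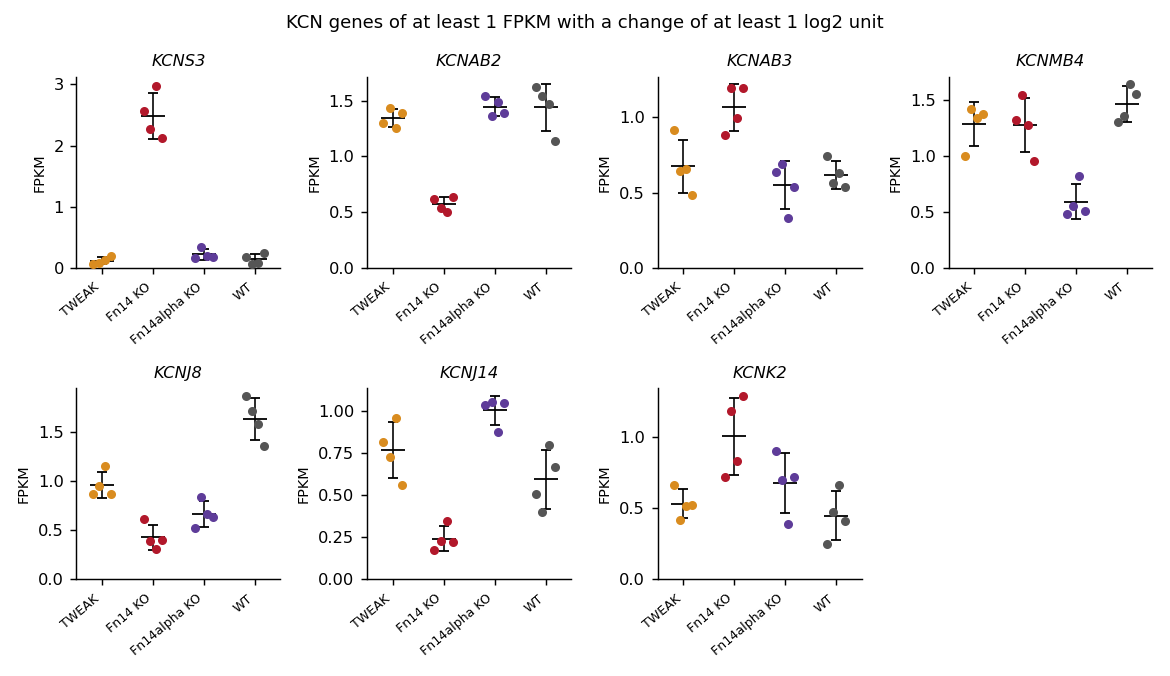
FPKM (vertical axis, from 0, own scale in each panel) of the 7 KCN genes that reached a mean of 1 FPKM in any group and had a called change of at least 1 log2 unit, in TWEAK, Fn14 KO, Fn14alpha KO and WT, with 1 point per library and lines for the mean and SD of 4 libraries. In Fn14 KO, KCNS3, KCNAB3 and KCNK2 stand above WT and KCNAB2, KCNJ8 and KCNJ14 below it, while KCNMB4 is low in Fn14alpha KO.

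Among the calcium-activated pore subunits, KCNMA1 and KCNT2 were higher in Fn14 KO and lower in Fn14alpha KO than in WT, and KCNN1 was the reverse. KCNN4 was called in 0 of the 4 edgeR comparisons, with a smallest adjusted p of 0.470. With the median of the 100 nearest tested genes removed, KCNN4 was called higher in Fn14 KO than in Fn14alpha KO. KCNMA1, the pore of the large-conductance BK channel, averaged 1.57 ± 0.115 FPKM with TWEAK, 1.85 ± 0.159 in Fn14 KO, 1.22 ± 0.0623 in Fn14alpha KO and 1.58 ± 0.0607 in WT (SD, n = 4 each). Its log2 fold changes against WT were 0.34 ± 0.07 in Fn14 KO (SE, edgeR adjusted p = 0.000292) and -0.40 ± 0.07 in Fn14alpha KO (SE, edgeR adjusted p = 8.86e-05), and neither knockout overlapped WT. KCNMA1 had 14888 counts over the 16 libraries, the most of the 95 genes, so its changes are small but well measured. KCNT2, a sodium-activated channel, averaged 0.663 ± 0.0599 FPKM in Fn14 KO and 0.241 ± 0.0257 in Fn14alpha KO, against 0.476 ± 0.0656 in WT (SD, n = 4 each). The 100 tested genes nearest to KCNT2 had a median log2 fold change of 0.48 in Fn14 KO against WT, and with it removed the KCNT2 value of 0.59 became 0.11 (edgeR adjusted p = 0.635). KCNN1, a small-conductance channel, had 15 counts over the Fn14 KO libraries, 189 over Fn14alpha KO and 103 over WT. Its log2 fold changes were -2.59 in Fn14 KO (edgeR adjusted p = 4.22e-06) and 0.95 in Fn14alpha KO (edgeR adjusted p = 0.00367) against WT.

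The KCNMB subunits set the calcium sensitivity and kinetics of the BK channel, and KCNMB4 (ENSG00000135643, chromosome 12, 70366290 to 70434292, GRCh38), the brain-type member, was the highest of them. It measured 0.484, 0.554, 0.817 and 0.510 FPKM in the Fn14alpha KO libraries, against 1.30, 1.35, 1.64 and 1.55 FPKM in WT. The TWEAK libraries held 0.993, 1.42, 1.34 and 1.37 FPKM and the Fn14 KO libraries 1.32, 1.54, 1.27 and 0.955 FPKM. Fn14alpha KO was low without overlap with any other group, and the other groups overlapped. The log2 fold change was -1.34 ± 0.18 in Fn14alpha KO against WT (SE, edgeR adjusted p = 1.56e-06) and 1.26 ± 0.18 in Fn14 KO against Fn14alpha KO (SE, edgeR adjusted p = 2.15e-06). In Fn14alpha KO the 100 nearest tested genes had a median log2 fold change of -0.48 against WT, and with it removed the KCNMB4 value was -0.86, still called. Between the knockouts it was 0.76 with the neighbour median removed, also still called.

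KCNMB1, the smooth muscle beta subunit, averaged 0.744 ± 0.110 FPKM in Fn14 KO, 0.144 ± 0.0406 in Fn14alpha KO and 0.242 ± 0.0829 in WT (SD, n = 4 each). The log2 fold change was 1.72 in Fn14 KO against WT (edgeR adjusted p = 3.86e-07) and -0.78 in Fn14alpha KO against WT (edgeR adjusted p = 0.0260). The Fn14alpha KO call was lost without WT replicate 3 or 4 (adjusted p = 0.105 and 0.0612) or Fn14alpha KO replicate 2 (adjusted p = 0.0950). The 6 smooth or striated muscle markers summed to 1.904 to 2.47 FPKM in Fn14 KO, 5.27 to 6.69 in Fn14alpha KO and 4.69 to 6.06 in WT, with 3 of the 6 passing the filter, CNN1 the bulk of it and TNNT2 at 0. CNN1 averaged 1.97 FPKM in Fn14 KO and 5.29 in WT, LMOD1 averaged 0.176 FPKM in Fn14 KO and 0.0402 in WT, and MYH11 averaged 0.0405 FPKM in Fn14 KO and 0.0407 in WT. The muscle marker sums of Fn14alpha KO and WT overlapped, and the part of these markers in the KCNMB1 result was not tested. KCNMB3 was lower in Fn14 KO than in WT (log2 fold change -0.94, edgeR adjusted p = 0.000788). PIK3CA and other genes overlap 47.5% of its exonic bases, and with the median of its neighbours removed the value was -0.39 (edgeR adjusted p = 0.165).

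Inward rectifiers passed the filter with 6 members. Of these, 4 were called in Fn14 KO against WT, 1 higher and 3 lower (background 52.9%). In Fn14alpha KO against WT 5 were called, 4 higher and 1 lower (background 42.2%). The count filter admitted KCNJ6 only through Fn14 KO and KCNJ4 only through Fn14alpha KO, so these counts are not read as a property of the 6 members. KCNJ8 (ENSG00000121361, chromosome 12, 21764955 to 21775600, GRCh38), the pore of the vascular type of ATP-sensitive potassium channel, was the highest of them by the mean over 16 libraries and the one called lower in all 3 comparisons with WT. In Fn14alpha KO its mean of 0.667 FPKM was below those of KCNJ14, at 1.01 FPKM, and KCNJ12, at 0.776 FPKM. It measured 0.869, 0.951, 1.16 and 0.866 FPKM with TWEAK, 0.613, 0.388, 0.311 and 0.400 FPKM in Fn14 KO and 0.521, 0.840, 0.666 and 0.641 FPKM in Fn14alpha KO, against 1.87, 1.72, 1.59 and 1.36 FPKM in WT. Every WT library was above every library of the other 3 groups. The log2 fold changes were -0.70 ± 0.19 with TWEAK (SE, edgeR adjusted p = 0.0223), -1.81 ± 0.21 in Fn14 KO (SE, edgeR adjusted p = 1.39e-07) and -1.33 ± 0.20 in Fn14alpha KO (SE, edgeR adjusted p = 8.89e-06). The 3 values share the WT libraries. The TWEAK call was lost without WT replicate 1 or 2 (adjusted p = 0.0722 and 0.0604) or TWEAK replicate 1, 2 or 4 (adjusted p = 0.0685, 0.0601 and 0.0685).

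KCNJ8 channels need a sulfonylurea receptor, and ABCC9, the receptor they pair with in vessels, lies 21.8 kb from KCNJ8 on chromosome 12. ABCC9 averaged 0.443 ± 0.0309 FPKM with TWEAK, 0.0108 ± 0.00892 in Fn14 KO, 0.0888 ± 0.0280 in Fn14alpha KO and 0.4706 ± 0.1001 in WT (SD, n = 4 each). Its log2 fold changes against WT were -5.23 in Fn14 KO (edgeR adjusted p = 1.40e-12) and -2.43 in Fn14alpha KO (edgeR adjusted p = 3.48e-09), and -0.03 with TWEAK (edgeR adjusted p = 0.942). Both genes of this channel were thus lower in both knockouts, and KCNJ8 but not ABCC9 was called lower with TWEAK; the difference between the genes was not tested. The 100 tested genes nearest to KCNJ8 had a median log2 fold change of -0.55 in Fn14 KO and -0.53 in Fn14alpha KO against WT. With these removed KCNJ8 was at -1.26 in Fn14 KO and -0.80 in Fn14alpha KO, still called in both.

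KCNJ14 (ENSG00000182324, chromosome 19, 48455574 to 48466980, GRCh38), a strong inward rectifier, took opposite directions in the knockouts. It measured 0.172, 0.228, 0.349 and 0.220 FPKM in Fn14 KO and 1.04, 1.06, 0.880 and 1.05 FPKM in Fn14alpha KO, against 0.508, 0.402, 0.799 and 0.670 FPKM in WT. The TWEAK libraries held 0.820, 0.730, 0.960 and 0.561 FPKM. All Fn14 KO libraries were below and all Fn14alpha KO libraries above those of WT, and TWEAK overlapped WT. The log2 fold change was -1.18 ± 0.26 in Fn14 KO against WT (SE, edgeR adjusted p = 0.000416), 0.72 ± 0.21 in Fn14alpha KO against WT (SE, edgeR adjusted p = 0.00710) and -1.91 ± 0.24 in Fn14 KO against Fn14alpha KO (SE, edgeR adjusted p = 3.37e-07). GRWD1 and other genes overlap 25.0% of its exonic bases. With the median of the 100 nearest tested genes removed, the KCNJ14 value in Fn14 KO against WT was -0.98, still called and now smaller than 1 log2 unit.

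KCNJ4, of the same subfamily, had 0 counts over the Fn14 KO libraries, 84 over Fn14alpha KO and 23 over WT. With a floor of 3 counts over the group it was at least 6.89-fold lower in Fn14 KO than in WT and at least 26.6-fold lower than in Fn14alpha KO. It was higher in Fn14alpha KO than in WT (log2 fold change 1.91, edgeR adjusted p = 0.000614). KCNJ12, another strong rectifier, averaged 0.230 ± 0.0216 FPKM in Fn14 KO, 0.776 ± 0.126 in Fn14alpha KO and 0.325 ± 0.136 in WT (SD, n = 4 each), a log2 fold change of 1.23 in Fn14alpha KO against WT (edgeR adjusted p = 0.000209), or 0.80 with the neighbour median removed, still called. KCNJ18 is a near-identical copy of KCNJ12 that had 0 counts, so reads of the pair may have been counted under one name or left out. KCNJ10, the rectifier of glia and kidney, was higher in Fn14alpha KO than in WT (log2 fold change 1.32, edgeR adjusted p = 0.00220). KCNJ6, a G-protein-gated channel, was the inward rectifier that rose in Fn14 KO, with 74 counts over the Fn14 KO libraries and 26 over the WT libraries (log2 fold change 1.64, edgeR adjusted p = 0.000254). KCNJ6 passed the count filter only through its Fn14 KO libraries, and KCNJ4 only through its Fn14alpha KO libraries.

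Of the 4 two-pore channels that passed, 3 were called in Fn14 KO against WT, 2 higher and 1 lower (background 52.9%). The lower 1, KCNK3, passed the count filter only through its Fn14alpha KO libraries. In Fn14alpha KO against WT 1 was called, higher (background 42.2%). KCNK2 (ENSG00000082482, chromosome 1, 215005775 to 215237090, GRCh38), a leak channel opened by stretch and lipids, was higher in Fn14 KO. It measured 0.717, 1.18, 0.826 and 1.29 FPKM in Fn14 KO, against 0.245, 0.469, 0.663 and 0.406 FPKM in WT. The TWEAK libraries held 0.662, 0.417, 0.514 and 0.524 FPKM and the Fn14alpha KO libraries 0.898, 0.695, 0.389 and 0.718 FPKM. Fn14 KO lay above WT and TWEAK without overlap and overlapped Fn14alpha KO. Its log2 fold change was 1.28 ± 0.26 in Fn14 KO against WT (SE, edgeR adjusted p = 0.000206) and 0.56 ± 0.27 in Fn14alpha KO against WT (SE, edgeR adjusted p = 0.106). Between the knockouts it was 0.72 ± 0.25 (SE, edgeR adjusted p = 0.0154), a call lost without Fn14alpha KO replicate 3 (adjusted p = 0.0725) or Fn14 KO replicate 2 or 4 (adjusted p = 0.0513 and 0.0637), and with the median of the neighbouring genes removed (adjusted p = 0.156). In Fn14 KO against WT the value with that median removed was 0.98, still called and now below 1 log2 unit.

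KCNK6 was higher in Fn14alpha KO than in WT by a log2 fold change of 0.59 ± 0.14 (SE, edgeR adjusted p = 0.00134), with every Fn14alpha KO library, from 3.596 FPKM up, above every WT library. In Fn14 KO against WT its log2 fold change of 0.40 (edgeR adjusted p = 0.0183) lost its call without Fn14 KO replicate 1 (adjusted p = 0.0848), without the 2 libraries that stood apart (adjusted p = 0.127) and with total-count scaling (adjusted p = 0.0856), and with the neighbour median removed the value was 0.60, still called. KCNK3, an acid-sensitive leak channel, had 7 counts over the Fn14 KO libraries, 58 over Fn14alpha KO and 37 over WT, and was lower in Fn14 KO than in WT by a log2 fold change of -2.17 (edgeR adjusted p = 0.00313). KCNK7 was called lower in Fn14 KO than in Fn14alpha KO (log2 fold change -1.08, edgeR adjusted p = 0.0210). That call was lost without Fn14alpha KO replicate 3 (adjusted p = 0.0518) or Fn14 KO replicate 1 or 4 (adjusted p = 0.0684 and 0.0748).

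A list of 38 partner and potassium transport genes outside the KCN symbols was looked at beside them, of which 21 passed the filter. With TWEAK against WT 2 were called, 1 higher and 1 lower (9.52%, against 6.87% of all genes tested). In Fn14 KO against WT 16 were called, 6 higher and 10 lower (76.2%, against 52.9%), and in Fn14alpha KO against WT 9, 5 higher and 4 lower (42.9%, against 42.2%). In Fn14 KO against Fn14alpha KO 14 were called, 6 higher and 8 lower (66.7%, against 59.2%). Of the 5 cation-chloride cotransporters that passed, 4 were lower in Fn14 KO than in WT, where 26.3% of all genes tested were lower. SLC12A7, a potassium-chloride exporter, averaged 6.06 ± 0.574 FPKM in Fn14 KO and 24.5 ± 3.91 in WT (SD, n = 4 each; log2 fold change -1.90, edgeR adjusted p = 3.71e-14). HCN2, a pacemaker channel that passes potassium and sodium, averaged 0.964 ± 0.118 FPKM in Fn14 KO and 4.16 ± 0.740 in WT (SD, n = 4 each; log2 fold change -1.99, edgeR adjusted p = 2.72e-11). Of the 6 subunits of the sodium-potassium pump that passed, 4 were higher and 1 lower in Fn14 KO than in WT, where 26.6% of all genes tested were higher and 26.3% lower. ATP1B3, a beta subunit of the pump, averaged 89.5 ± 12.7 FPKM in Fn14 KO and 67.9 ± 6.30 in WT (SD, n = 4 each; log2 fold change 0.52, edgeR adjusted p = 7.79e-06). Per length, the mean levels of ATP1B3 and SLC12A7 stood above those of every potassium channel gene in each group.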

How the data were processed

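The deposited table holds a raw read count per gene and library, with no normalization, and FPKM values that the authors made from these counts, per the file headers and the values. FPKM recomputed from the counts, the exonic size and the library total differed from the deposited FPKM by at most 0.005. HISAT2 2.0.1, HTSeq 0.6.1, DESeq2, cutadapt 1.9.1 and FastQC 0.10.1 are named in the submitters' processing notes, with the builds GRCh38.p13 and hg38. No source used here states what each tool was used for, the strand setting or the annotation release.

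Counts were tested with edgeR 4.0.16 in R 4.3.3: TMM scaling, filterByExpr by group, robust quasi-likelihood F test (two-sided) and 1 mean per group over 16 libraries. The common dispersion was 0.00750 and the false discovery rate 0.05 over 16029 genes. Standard errors are the log2 fold change divided by the square root of F. Levels are given in FPKM, with the mean and SD over 4 libraries. Total counts per library ran from 13335919 to 16888606, and counts of a few reads carry a large counting error. Over the 24 replicate pairs, chi-square divided by its degrees of freedom ran from 2.30 to 39.0, so each library was counted once.

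Genes given in full passed the filter, reached 1 FPKM in a group and had a called change of at least 1 log2 unit. The 10 highest members and the highest of each class are given with levels. The members, the classes, the marker and partner lists and the tests were chosen with earlier results of these data known. The remaining called members that are named were taken after their values were seen. The script was tested on simulated data. Alternatives were total-count scaling, DESeq2 1.42.0, no count filter, limma 3.58.1 on log2(FPKM + 0.1) and log2(FPKM + 1), a replicate block, the 2 groups alone, single libraries left out, the 2 libraries that stood apart left out, and the median of the 100 nearest tested genes removed. Sequences were read with Biopython 1.88 and plots drawn with matplotlib 3.10.9, numpy 2.4.6 and pandas 2.3.3 in Python 3.11.15. Coordinates are those of the deposited table unless RefSeq or GENCODE 29 is named. Sequence of KCNQ3 is not printed, and values of a few genes of the set are not reported here.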

Additional observations from a re-analysis of the deposited data

Results flagged for a closer look

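In the Fn14alpha KO group, KCNJ14 measured 0.880 FPKM in replicate 3, apart from the other 3 libraries at 1.04 to 1.06 FPKM. The gap was 0.910 of the range of the group, above Dixon's 95% critical value for 4 samples. It was 1 of 56 such tests, of which chance alone flags about 1 in 20, and the low library still lay above every WT library, whose highest value was 0.799 FPKM.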

How the results depend on the processing

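Of the 80 calls on KCN genes over the 4 comparisons, 60 held under every alternative run, 20 were lost under at least 1 and 0 reversed. The 20 were 3 of 4 with TWEAK against WT, 7 of 26 in Fn14 KO against WT, 3 of 21 in Fn14alpha KO against WT and 7 of 29 between the knockouts. With TWEAK the count of 4 became 2 with limma at either pseudocount, and 1 to 3 with single libraries left out; KCNQ3 alone was left without WT replicate 1. At 1 log2 unit the TWEAK count of 0 became 1 with total counts and 1 without the 2 libraries that stood apart (0 to 1 with single libraries left out), and the gene was KCNC1, lower, each time. Total-count scaling moved the median of all genes to -0.12 in Fn14 KO against WT and -0.15 in Fn14 KO against Fn14alpha KO.

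With limma on log2(FPKM + 0.1), the counts of calls of at least 1 log2 unit were 11 in Fn14 KO, 7 in Fn14alpha KO and 14 between the knockouts, and on log2(FPKM + 1) they were 1, 0 and 1, since a pseudocount near the level of these genes shrinks their fold change. With the median of neighbouring genes removed, 7 remained at that size in Fn14alpha KO against WT. Detection by a mean of 1 FPKM gave 13 genes in place of 37. With single libraries left out the called counts ran from 25 to 28 in Fn14 KO, 19 to 22 in Fn14alpha KO and 26 to 31 between the knockouts, and those of at least 1 log2 unit from 16 to 18, 10 to 12 and 20 to 22.

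The replicate block gave 3 called with TWEAK, 26 in Fn14 KO, 20 in Fn14alpha KO and 28 between the knockouts. Same-numbered libraries did not deviate together (correlations of -0.228 to 0.108), so the numbers were not taken to pair libraries. Most members lie below 1 FPKM, where the count limits what can be told, and isoforms, protein and currents were not measured.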
